A study of Homo sapiens with 24 samples.

Results

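Gene expression was compared between untreated SKBR3 cells and SKBR3 cells given ApoTras, a biosimilar of the antibody trastuzumab. SKBR3 is a human breast carcinoma line. The comparison took every library that the labels name as untreated (control, 8 libraries) or biosimilar-treated (8 libraries), 16 of the 24 libraries of the series, and the 8 libraries of cells given Herceptin were not used. Per the labels' protocols all cells grew in DMEM with 10% serum and antibiotics in 6-well plates, were seeded at 6500 cells per cm2, had fresh medium on days 1 and 4 and gave RNA on day 7. The biosimilar was given in phosphate-buffered saline. Whether the 4 µg/ml that the labels state for Herceptin also held for the biosimilar is unclear. Control cells received nothing, so that the buffer and an unrelated antibody were not controlled for, and 1 cell line without immune cells stands for the tumour. The labels say that 8 replicates a group were set up on the first day and name no plate, RNA or sequencing batch, so that p-values measure only how these libraries spread, and that spread may be technical. In bulk RNA of this kind, fewer cells of a type and less RNA per cell cannot be told apart.

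HER2, the product of ERBB2, is a receptor tyrosine kinase that pairs with the related receptors EGFR and HER3 and signals through PI3K and AKT to growth, protein synthesis and the cell cycle. AKT keeps the FOXO transcription factors out of the nucleus, and mTORC1, downstream of AKT, keeps the lysosomal transcription factors of the TFEB family inactive. SKBR3 cells carry many copies of ERBB2, and trastuzumab binds the outer part of HER2 and slows their division.

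Library totals ran from 9116591 to 10759115 expected counts in control and from 9070186 to 11880165 with the biosimilar. The biological coefficient of variation between libraries was 5.44%, and the first principal component, which held 45.8% of the variance, separated the groups. Biosimilar replicate 6 stood nearer to control on it, at 8.01 against 10.8 to 14.6 for the other biosimilar libraries and -9.48 or lower for control. All 17 luminal epithelial markers of SKBR3 cells were tested, with a summed level between 17575 and 19255 CPM, counts scaled to a common library total, in control and between 18477 and 20270 with the biosimilar. CDH1 and PGR, which this line is known to lack, had at most 1 and 2 counts in a library, and ESR1 had 10 to 31. Of 15 leukocyte, 11 fibroblast and 10 endothelial markers 1, 2 and 2 passed the filter on low counts. The leukocyte marker PTPRC had at most 2 counts in any library.

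At an edgeR adjusted p under 0.05, 6178 of 13151 tested genes changed, 47.0% of them, of which 3040 rose (23.1% of the tested genes) and 3138 fell (23.9%). Few changes were large. Under 1.2-fold lay 54.9% of the changed genes and between 1.2-fold and 1.5-fold another 36.5%, and 98 genes (1.59%) differed by at least 2-fold, 73 of them higher. Many of these 98 are weakly measured: 47 of the 73 rises and 20 of the 25 falls had a mean under 5 CPM. Another 14 and 18, in part the same genes, had expected counts that were not whole in most libraries, as happens where reads are shared between genes. Such genes are called uncertain below. In 1991 genes (15.1%) the levels of the groups did not overlap, 1001 of them higher (7.61%) and 990 lower (7.53%) with the biosimilar. Smaller changes could be called in more abundant genes, since the median standard error (SE) of a log2 fold change was 0.175 in the quintile of lowest level and 0.035 in the highest.

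**Figure D1:**
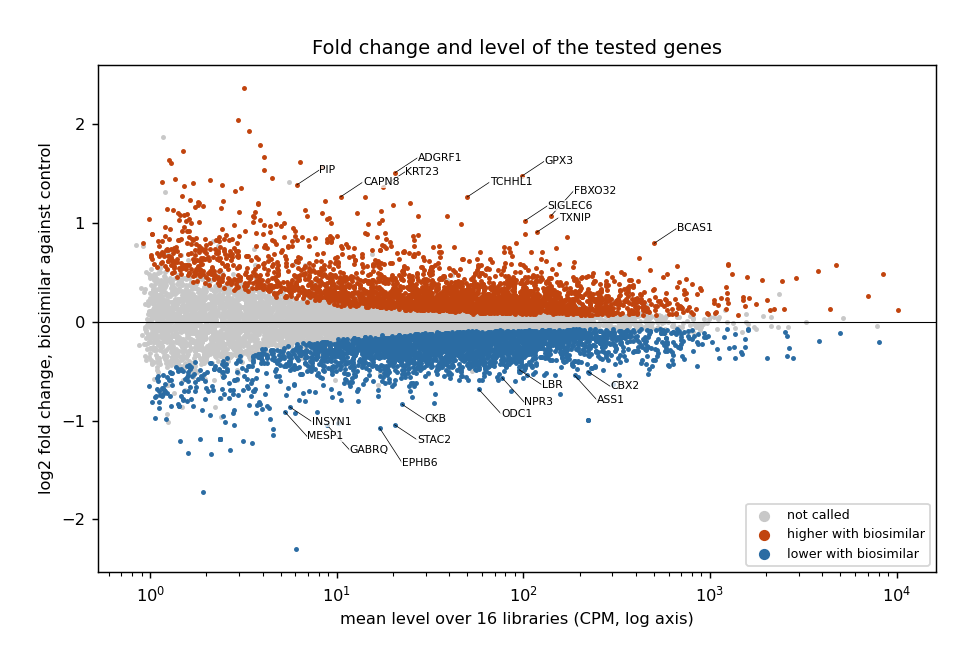
Log2 fold change of the biosimilar against control (vertical axis) and mean level in CPM over the 16 libraries (horizontal log axis), 1 point for each of 13151 tested genes. Genes called at an edgeR adjusted p under 0.05 are coloured; most of them lie within 1.5-fold of no change, and the labelled genes include GPX3, ADGRF1 and FBXO32 among the rises and EPHB6 and STAC2 among the falls.

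Fold changes also moved with gene length. Among the shortest quintile of the tested genes (69 to 1378 bases) 10.7% rose and 36% fell, with a median log2 fold change of -0.10, while among the longest quintile (4000 bases or more) 37.2% rose and 12.5% fell, with a median of 0.08. The median difference of the longest from the shortest quintile lay between -0.08 and 0.06 in the control libraries and was above that range in 7 of 8 biosimilar libraries, with biosimilar replicate 6 at -0.06 (difference of means 0.182, exact two-sided permutation p = 0.0028). Whether this trend reflects the treatment or the RNA and library preparation was not tested. Each gene list below was therefore also counted after a smooth trend on gene length had been taken out of every library, and the counts without it are given for lists on which it bears most. GC content moved with the changes in another shape: in the quintile richest in GC 14.3% rose and 33.7% fell (median -0.07), against 27.9% and 18% in the middle quintile (median 0.04). The difference between the extreme GC quintiles, which cannot see such a shape, gave an exact two-sided permutation p of 0.189.

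**Figure D2:**
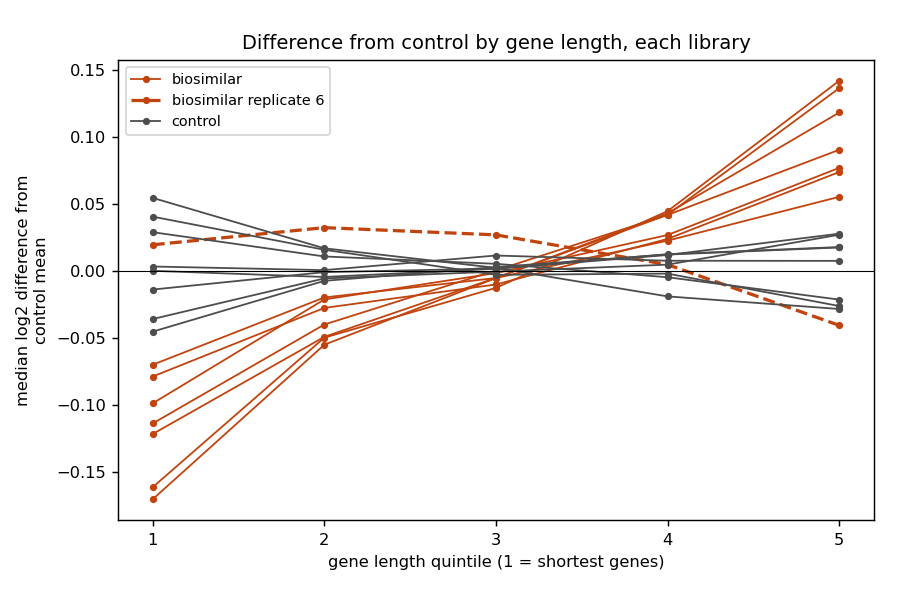
Median log2 difference from the control mean (vertical axis) in 5 classes of gene length, from the shortest to the longest genes (horizontal axis), 1 line for each library. In 7 biosimilar libraries the rise from the shortest to the longest genes is steeper than in any control library (grey), and biosimilar replicate 6 is dashed.

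Among genes of at least 5 CPM with mostly whole counts and groups that did not overlap, ADGRF1, the gene of an adhesion receptor coupled to G proteins, had the largest rise (chromosome 6, 46997703 to 47042363, GRCh38). Control libraries had 9.582 to 11.76 CPM of it with a median of 10.69, and biosimilar libraries had 26.48 to 32.15 with a median of 30.66 (log2 fold change 1.51, SE 0.0569, edgeR adjusted p = 8.36e-19). GPX3, the secreted glutathione peroxidase (chromosome 5, 151020438 to 151028993), had the smallest p of all rises. Its level was 47.51 to 55.13 CPM in control (median 52.47) and 132.6 to 159.3 with the biosimilar (median 142; log2 fold change 1.47, SE 0.041, edgeR adjusted p = 6.62e-22). For both genes the lowest biosimilar library was more than 2-fold above the highest control library. PIP, the prolactin-inducible protein of apocrine secretions, was less abundant and more variable, at 1.653 to 4.544 CPM in control (median 3.534) and 6.295 to 11.29 with the biosimilar (median 8.889).

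The other rises on this list fell into a few kinds. KRT23 and KRT9 (keratins) and TCHHL1 (a trichohyalin-like protein of the epidermal differentiation cluster) rose by 1.37, 1.10 and 1.26 on the log2 scale. CEACAM6, a cell adhesion glycoprotein, went from a median of 15.5 CPM to 33.4, and MUC15, a membrane mucin, from 8.04 to 17. CYP1A1, a cytochrome P450 induced through the aryl hydrocarbon receptor, rose from a median of 7.902 to 19.73 CPM, CHAC1, a glutathione-degrading enzyme, from 4.325 to 9.254, and CAPN8, a calpain protease, from 6.292 to 14.18. EGR1, an immediate-early transcription factor, went from 9.415 to 12.14 CPM in control (median 11.19) to 21.14 to 26.59 (median 23.71). Ranked by p, the rises also included FBXO32, BCAS1, SIGLEC6 and TXNIP. BCAS1, a gene named for its amplification in breast carcinoma, was the most abundant of these, at 354.5 to 383.9 CPM in control (median 367.7) and 600.3 to 673.9 with the biosimilar (median 634.8; log2 fold change 0.80, SE 0.0282, edgeR adjusted p = 2.37e-19). SIGLEC6, a sialic acid-binding lectin, rose from a median of 67.01 CPM to 136.2.

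Under the same conditions EPHB6 had the largest fall; larger falls, such as that of KREMEN2 below, were in genes with fewer counts or with counts that were not whole. It encodes an Eph receptor without kinase activity and lies on chromosome 7 (142855061 to 142871094). Control libraries had 21.74 to 23.86 CPM of it (median 23.03) and biosimilar libraries 8.569 to 12.41 (median 11.28; log2 fold change -1.07, SE 0.0624, edgeR adjusted p = 2.41e-14), so that every biosimilar library was below every control library. GABRQ, a GABA-A receptor subunit, fell by 1.05 on the log2 scale, and STAC2, an adaptor of voltage-gated calcium channels, by 1.04. MESP1 (a mesodermal transcription factor), INSYN1 (a protein of inhibitory synapses), NXPH4 (a neurexophilin) and F12 (coagulation factor XII) fell by 0.91, 0.86, 0.75 and 0.79. CKB, the brain-type creatine kinase, went from a median of 29.28 CPM to 16.31, GLYATL2, a glycine acyltransferase, from 41.99 to 24.36, and POLR3G, a subunit of RNA polymerase III, from 13.62 to 7.725. IGFBP2, an insulin-like growth factor binding protein, fell from a median of 7.994 to 4.914 CPM, and NKD1, an inhibitor of Wnt signalling, from 16.07 to 9.743. By p the falls were led by more abundant genes. CBX2, a Polycomb protein, went from 252.6 to 267 CPM in control (median 260.5) to 177.7 to 188 (median 184.3; log2 fold change -0.50, SE 0.0265, edgeR adjusted p = 2.97e-15). NPR3, the natriuretic peptide clearance receptor, ASS1, which makes the precursor of arginine, and LBR, the lamin B receptor, fell by 0.56, 0.54 and 0.49.

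**Figure D3:**
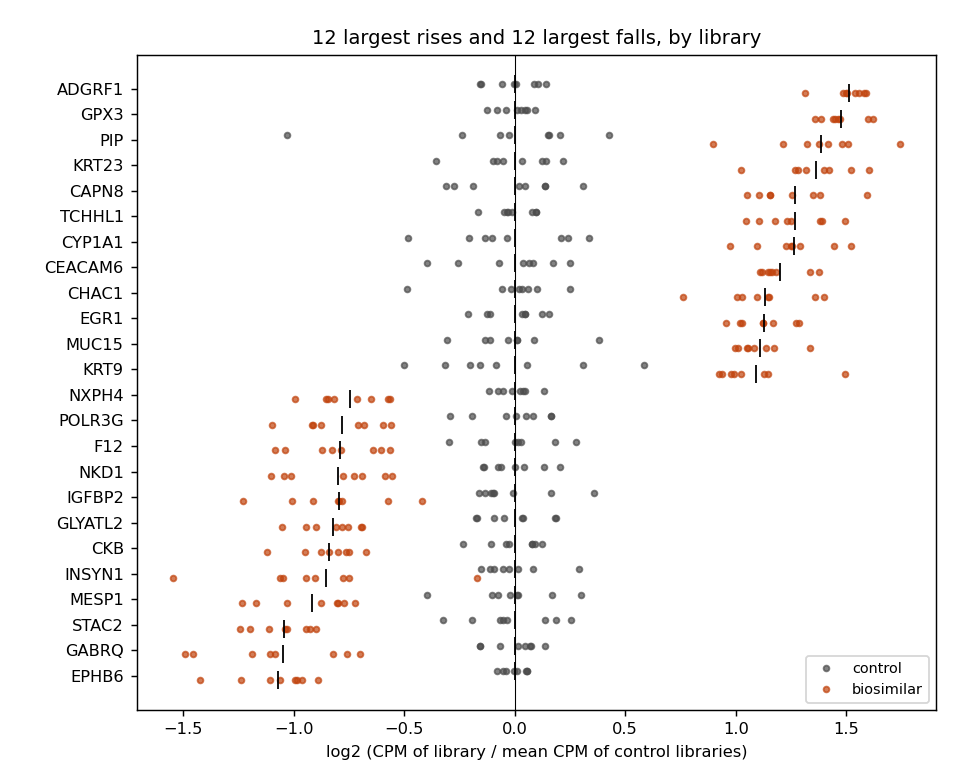
Log2 ratio of each library's CPM to the mean CPM of the 8 control libraries (horizontal axis) for the 12 largest rises and the 12 largest falls named by rule. Grey points are control libraries, orange points biosimilar libraries and ticks the same ratio for the mean CPM of each group. No biosimilar library of any of these genes reaches into the control range, and the points of PIP, INSYN1 and KRT9 spread most.

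Measured in CPM gained or lost, the largest rises were in mitochondrially encoded transcripts. COX1 (uncertain), ND4, COX2 (uncertain), the large ribosomal RNA MT-RNR2 and ND5 led, followed by EEF1A1 (uncertain), a translation elongation factor gene. The largest falls were in RPL7, HSP90AA1, RPSA, GAPDH and RPS24, all uncertain, and DHRS2, a short-chain dehydrogenase. The call of RPL7 was lost when the length trend was removed (log2 fold change -0.08, edgeR adjusted p = 0.0827). DHRS2, with whole counts, went from 2827 to 2934 CPM in control (median 2904) to 2326 to 2534 (median 2397; log2 fold change -0.27, SE 0.0263, edgeR adjusted p = 1.26e-09). GAPDH, often used as a reference gene, fell by 0.19 on the log2 scale (SE 0.0326).

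Genes of the receptor family to which the antibody's target belongs were higher. Of 15 genes of HER receptors and ligands 8 were tested, and 5 rose and 0 fell, with a median log2 fold change of 0.36 against -0.0018 over all tested genes. ERBB2 itself, which is uncertain, rose little, from 3990 to 4327 CPM in control (median 4149) to 4390 to 4788 (median 4585; log2 fold change 0.13, SE 0.0282, edgeR adjusted p = 3.16e-04). ERBB3, which encodes the partner HER3, went from 150 to 169 CPM (median 159.8) to 193.5 to 227.1 (median 216.9), without overlap. EGFR overlapped, at 157.4 to 179.3 CPM in control (median 168.4) and 178.1 to 245.3 with the biosimilar (median 226.4). Its lowest biosimilar value was that of replicate 6, and its log2 fold change of 0.40 was 0.29 without the length trend. For the whole list replicate 6 had a median difference of 0.13 and the other biosimilar libraries 0.24 to 0.47. Among the ligands of EGFR, BTC (betacellulin) had the list's largest rise, from a median of 4.557 CPM to 6.916, and EGF went from 21.27 to 29.18. AREG (amphiregulin) was not called (log2 fold change 0.32, SE 0.214, edgeR adjusted p = 0.231).

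In the PI3K, AKT and mTOR pathway 16 of 44 genes rose (36.4%, against 23.1% of all tested genes) and 9 fell (20.5%, against 23.9%). After removal of the length trend 13 rose and 9 fell. The median was 0.08 with the trend and 0.03 without it. Biosimilar replicate 6 had a median difference of -0.01 for this list and the other biosimilar libraries 0.03 to 0.12. INSR, the insulin receptor, went from 17.97 to 22.11 CPM in control (median 20.04) to 27.76 to 33.73 (median 32.85; log2 fold change 0.66, SE 0.052, edgeR adjusted p = 1.46e-11). INPP4B, a phosphatase of PI3K's lipid products, rose from a median of 17.19 to 28.36 CPM and PIK3IP1, an inhibitor of PI3K, from 22.61 to 32. The kinase genes RPS6KB2 and AKT1 (uncertain) fell by 0.34 and 0.20, and AKT1S1 (uncertain), an inhibitory subunit of mTORC1, by 0.19. Of 10 tested genes of the insulin-like growth factor axis 6 rose (60%) and 2 fell (20%). IRS2, an adaptor of the insulin and IGF receptors, rose at a low level, from 0.593 to 1.756 CPM (median 0.9783) to 1.339 to 2.395 (median 2.074), with the groups overlapping, and IGF1R rose from a median of 19.74 to 25.65 CPM. STC1, stanniocalcin, fell with IGFBP2. The list's median was 0.25 over all libraries and 0.14 after removal of the length trend, and its members, which are long genes (median 6288 bases), had a median difference of -0.07 in biosimilar replicate 6 against 0.17 to 0.37 in the other biosimilar libraries.

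Genes of mitosis were lower almost without exception. Of 40 genes of G2/M and mitosis, all tested, 38 fell and 0 rose. In 27 of the 40 the biosimilar group lay below control without overlap, against 7.53% of all tested genes. The median log2 fold change was -0.29, and the same counts held after removal of the length trend. PLK1, the Polo-like kinase, went from 106.2 to 118.5 CPM in control (median 109.7) to 69.75 to 83.5 (median 78.45; log2 fold change -0.51, SE 0.0367, edgeR adjusted p = 2.53e-12). BIRC5, the chromosomal passenger protein survivin, went from 114.6 to 126.9 (median 118.2) to 80.08 to 92.3 (median 87.21), and CCNA2 (cyclin A2, uncertain) from 121.9 to 135 (median 128.9) to 89.96 to 99.86 (median 93.15). The ends of the list, named after their values were seen as are the ends of lists below, were CDK1, the kinase that starts mitosis, which fell by 0.63 from a median of 375.7 CPM to 238.7, and TOP2A, topoisomerase II alpha, which was not called at -0.01 (SE 0.0339, edgeR adjusted p = 0.851). TOP2A lies on chromosome 17 near ERBB2 (40388516 to 40417950) and CKAP2, at -0.04, was the other member not called. In each of the 8 biosimilar libraries the median difference of the list was between -0.33 and -0.26, replicate 6 at -0.29, against -0.08 to 0.08 in control.

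Promoters of such genes are known for a CHR element, read here as TTTGAA, which MuvB complexes bind, and for CCAAT boxes, both on either strand. In RefSeq promoters of GRCh38.p14, taken from 250 bases before to 50 after the start, 33 genes of the list were found; 21 of them (63.6%) held TTTGAA and 25 (75.8%) held CCAAT, against 9.61% and 37% of the 10060 promoters of tested genes and 15.4% and 35.7% of all 27305 promoters. These shares are descriptions of the letters, and a match is not a bound site. The promoters of PLK1 (chr16:23678739-23678908, plus strand), CENPA (chr2:26785906-26786075, plus strand), CCNB2 (chr15:59104996-59105165, plus strand) and HMMR (chr5:163460482-163460651, plus strand) are shown from 150 bases before the start, since they hold both motifs in this window. Capitals mark TTTGAA and CCAAT, or their reverse complements TTCAAA and ATTGG.
PLK1: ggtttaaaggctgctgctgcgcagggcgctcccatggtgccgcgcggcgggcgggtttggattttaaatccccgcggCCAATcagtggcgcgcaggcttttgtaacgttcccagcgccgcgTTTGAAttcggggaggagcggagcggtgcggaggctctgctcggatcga
CENPA: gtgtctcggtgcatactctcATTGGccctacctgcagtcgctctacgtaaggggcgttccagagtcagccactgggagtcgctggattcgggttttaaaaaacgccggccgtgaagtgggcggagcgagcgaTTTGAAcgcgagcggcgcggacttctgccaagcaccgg
CCNB2: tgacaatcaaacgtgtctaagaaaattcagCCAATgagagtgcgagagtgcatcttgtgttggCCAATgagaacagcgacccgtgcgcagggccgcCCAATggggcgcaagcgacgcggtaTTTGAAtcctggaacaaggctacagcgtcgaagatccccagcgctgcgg
HMMR: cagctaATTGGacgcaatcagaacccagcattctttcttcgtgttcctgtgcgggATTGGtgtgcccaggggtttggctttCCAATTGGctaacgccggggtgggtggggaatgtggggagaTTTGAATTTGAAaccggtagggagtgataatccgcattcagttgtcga
Of these 4 genes, HMMR, a spindle and hyaluronan receptor protein, fell by 0.48, CENPA, the centromeric histone, by 0.40 and CCNB2, cyclin B2, by 0.30. Over all tested genes, TTTGAA stood in 11.5% of the promoters of genes that fell and in 8.44% of those of genes that rose, and CCAAT in 42.3% and 33.8%.

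The machinery that attaches chromosomes fell in the same way. Of 35 centromere and kinetochore genes 28 fell and 1 rose, with a median of -0.25. ZWINT, a kinetochore linker, went from 330.6 to 383 CPM (median 365.9) to 268.8 to 294.6 (median 278.3), and CENPK, of the constitutive centromere network, from 22.11 to 27.08 (median 24.2) to 13.84 to 17.86 (median 15.95; log2 fold change -0.63, SE 0.0598, edgeR adjusted p = 6.81e-10). CENPL fell by 0.48. The single rise, CENPC at 0.14, had an edgeR adjusted p of 0.0408 and lost its call in 13 of the alternative settings. Of 30 kinesins 15 fell (50%) and 7 rose, the latter 23.3% and near the 23.1% of all tested genes. KIF18B, KIFC1 and KIF2C (uncertain), motors of the mitotic spindle, fell by 0.47, 0.29 and 0.27, whereas KIF13B, KIF16B and KIF13A, motors of vesicle transport, rose by 0.63, 0.40 and 0.21. KIF13B went from 32.33 to 39.89 CPM (median 37.51) to 50.52 to 65.21 (median 57.36), without overlap.

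Regulators of the cell cycle genes moved with them. Of 19 E2F, RB and MuvB regulators 11 fell, and RBL2 (uncertain), the pocket protein p130 of resting cells, was the 1 that rose, from a median of 59.61 to 72.65 CPM. MYBL2, the B-MYB activator of late cell cycle genes, went from 252.2 to 287.9 CPM (median 258.2) to 167.8 to 205.5 (median 182.4; log2 fold change -0.52, SE 0.0389, edgeR adjusted p = 5.91e-12). LIN9, a MuvB subunit, and E2F1 fell by 0.56 and 0.46, and neither had overlapping groups. Of 16 promoters of this list 5 (31.2%) held an E2F motif, read as TTTCCCGC or TTTGGCGC on either strand, against 3.8% for the promoters of all tested genes. It stood in 5.83% of the promoters of all genes that fell and 2.66% of those that rose. The promoters of E2F1 (chr20:33686366-33686535, minus strand) and E2F2 (chr1:23531214-23531383, minus strand), which fell by 0.46 and 0.44, are shown with the E2F motif in capitals.
E2F1: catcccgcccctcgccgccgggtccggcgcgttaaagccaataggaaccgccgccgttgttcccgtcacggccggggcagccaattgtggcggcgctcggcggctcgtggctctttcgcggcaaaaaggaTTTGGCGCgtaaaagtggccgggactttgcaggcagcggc
E2F2: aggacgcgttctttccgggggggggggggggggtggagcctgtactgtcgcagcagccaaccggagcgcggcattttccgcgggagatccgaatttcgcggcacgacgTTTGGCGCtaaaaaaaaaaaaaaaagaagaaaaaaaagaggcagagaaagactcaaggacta
Both carry the TTTGGCGC form.

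Genes that supply building blocks to dividing cells were also lower. Of 35 nucleotide synthesis genes 22 fell and 3 rose, with a median of -0.18. RRM2, the cell-cycle subunit of ribonucleotide reductase, went from 357.5 to 395.6 CPM (median 376.2) to 277.3 to 292.6 (median 284.2; log2 fold change -0.40, SE 0.0277, edgeR adjusted p = 9.76e-13). Thymidylate synthase (TYMS, uncertain) and thymidine kinase (TK1) fell by 0.36 and 0.29. Against them, ATIC, which completes the purine ring, rose from 69.29 to 76.76 CPM (median 72.39) to 87.35 to 102 (median 94.82), and ADSS and DCTD rose by 0.13 and 0.20. The call of DCTD was lost without control replicate 7 or biosimilar replicate 4 or 5 (highest edgeR adjusted p = 0.0671). In the folate and methionine cycle 10 of 20 genes fell and 3 rose. SHMT2, the mitochondrial serine hydroxymethyltransferase, fell by 0.35 from a median of 146.1 CPM to 112.5, and the folate carriers SLC19A1 and SLC25A32 (both uncertain) by 0.41 and 0.40, while MTR, methionine synthase, rose by 0.27.

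Polyamine genes moved both ways. ODC1, ornithine decarboxylase, the first enzyme of synthesis, went from 68.05 to 79.13 CPM in control (median 70.03) to 40.14 to 46.77 (median 44.91; log2 fold change -0.68, SE 0.0412, edgeR adjusted p = 5.85e-14). SAT1, which acetylates polyamines for export and breakdown, went from 53.99 to 68.06 (median 65.72) to 81.74 to 109 (median 95.9; log2 fold change 0.60, SE 0.0598, edgeR adjusted p = 3.23e-08). Neither gene had overlapping groups. EIF5A (uncertain), whose product carries a modification made from spermidine, fell by 0.28 and SRM, spermidine synthase, by 0.23, a call that was lost with length and GC trends removed (edgeR adjusted p = 0.106). SMS (uncertain), spermine synthase, and AZIN1, an inhibitor of antizyme that sustains ornithine decarboxylase, rose by 0.19 and 0.15. In all 11 of 17 fell and 3 rose, and 6 fell and 3 rose after removal of the length trend.

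Counts for protein synthesis and turnover depended more on gene length. Of 79 cytosolic ribosomal protein genes, which are short (median 648 bases) and of which 54 are uncertain, 41 fell and 7 rose with a median of -0.10. After removal of the length trend 24 fell and 36 rose with a median of 0.01. With length and GC trends removed 29 fell and 30 rose with a median of -0.0150, so the list's direction depended on the correction. Biosimilar replicate 6 had a median difference of 0.04 for this list and the other biosimilar libraries had -0.27 to -0.04. As a share of all tested counts these genes held 7.293% ± 0.319 in control and 6.639% ± 0.385 with the biosimilar (SD, n = 8, exact two-sided permutation p = 0.00295), with 6 of 8 biosimilar libraries below every control library. Of 39 proteasome subunit genes 22 fell and 5 rose, and 17 fell and 9 rose without the length trend. PSME3, a nuclear proteasome activator, fell by 0.23, and PSMD1, a regulatory subunit, rose by 0.13. Nuclear pore genes are long, and 17 of 30 fell while 2 rose, or 19 and 2 without the trend, NDC1 and NUP85 among them with falls of 0.30 and 0.29. Of 37 aminoacyl-tRNA synthetase genes 9 fell (24.3%, against 23.9% of all tested genes) and 4 rose (10.8%, against 23.1%). FARSA was lower by 0.20, and CARS and EPRS were higher by 0.21 and 0.18.

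Target genes of FOXO transcription factors rose, 22 of 30, while 3 fell, with a median of 0.31. In 15 of the 30 the biosimilar group lay above control without overlap, against 7.61% of all tested genes. FBXO32, the ubiquitin ligase atrogin-1, went from 87.18 to 93.47 CPM (median 90.73) to 178.1 to 206 (median 188.7; log2 fold change 1.08, SE 0.0332, edgeR adjusted p = 6.64e-21). TXNIP, the thioredoxin-interacting protein that limits glucose uptake, went from 76.12 to 89.38 (median 81.7) to 139.6 to 162.7 (median 156.2). CITED2, a transcriptional co-regulator, rose by 0.64 and YPEL3, a growth-inhibitory gene, by 0.64. Not every textbook target followed. CDKN1B, the CDK inhibitor p27, was not called at 0.03 (SE 0.042, edgeR adjusted p = 0.589), and CDKN1A, the CDK inhibitor p21, BNIP3, a mitophagy receptor, and SOD2 (uncertain), the mitochondrial superoxide dismutase, fell by 0.19, 0.28 and 0.09, the call of SOD2 being lost without the filter on low counts (edgeR adjusted p = 0.0873). Of 25 promoters of the list 5 (20%) held GTAAACA, a FOXO binding motif, on either strand, against 2.29% for all tested genes, 3.24% for genes that rose and 1.51% for genes that fell. Those of TXNIP (chr1:145996560-145996729, minus strand) and YPEL3 (chr16:30096194-30096363, minus strand) are shown with that motif in capitals.
TXNIP: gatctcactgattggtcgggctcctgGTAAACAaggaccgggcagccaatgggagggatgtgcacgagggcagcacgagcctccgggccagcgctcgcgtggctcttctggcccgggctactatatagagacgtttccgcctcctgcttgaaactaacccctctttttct
YPEL3: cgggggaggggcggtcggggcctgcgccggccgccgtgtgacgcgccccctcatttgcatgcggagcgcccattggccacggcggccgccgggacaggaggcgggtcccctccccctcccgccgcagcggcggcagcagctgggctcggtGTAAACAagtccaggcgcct
Both were above every control library in all 8 biosimilar libraries.

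Most lysosomal genes rose. Of 50 tested genes of lysosomal enzymes and membrane proteins 38 rose and 3 fell, with a median of 0.21. In 22 of the 50 the biosimilar group lay above control without overlap, against 7.61% of all tested genes. GM2A, the activator of ganglioside breakdown, went from 312 to 343.5 CPM (median 322.5) to 481.8 to 527.6 (median 508.7; log2 fold change 0.64, SE 0.0292, edgeR adjusted p = 9.09e-17). The hydrolase genes IDS and GUSB, both uncertain, rose by 0.75 and 0.47. CTSO, a cathepsin, had the largest fold at a low level, from a median of 4.646 CPM to 9.349. MITF, a transcription factor of the TFEB family, rose from 10.4 to 16.88 CPM at the median, CD63, a tetraspanin of late endosomes, from 252.9 to 341.6. The falls were CTSC, GLA and CTSZ, at 0.41, 0.23 and 0.09, of which CTSZ lost its call when the length trend was removed (edgeR adjusted p = 0.308). Of 22 tested subunits of the vacuolar ATPase, the proton pump of lysosomes, 8 rose and 2 fell, or 12 and 1 without the length trend. ATP6V0A4 rose by 0.71 and ATP6V1H by 0.29, and ATP6V0B, a short gene, fell by 0.39. The E box CACGTG, which the TFEB family and other helix-loop-helix factors bind, stood in 10 of 35 promoters of the lysosomal list (28.6%), against 10.2% of those of tested genes, and in 10.5% and 11% of those of genes that rose and fell. The promoters of LAMP1 (chr13:113297089-113297258, plus strand), GAA (chr17:80101431-80101600, plus strand) and CTSF (chr11:66568587-66568756, minus strand) are shown with CACGTG in capitals, since each has it more than once.
LAMP1: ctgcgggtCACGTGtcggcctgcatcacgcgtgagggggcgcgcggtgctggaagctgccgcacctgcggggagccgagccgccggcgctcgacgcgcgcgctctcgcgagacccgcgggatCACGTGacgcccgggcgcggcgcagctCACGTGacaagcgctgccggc
GAA: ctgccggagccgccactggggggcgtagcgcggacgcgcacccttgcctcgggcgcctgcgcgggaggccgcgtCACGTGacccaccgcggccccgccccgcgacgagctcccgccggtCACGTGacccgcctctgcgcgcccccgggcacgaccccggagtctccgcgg
CTSF: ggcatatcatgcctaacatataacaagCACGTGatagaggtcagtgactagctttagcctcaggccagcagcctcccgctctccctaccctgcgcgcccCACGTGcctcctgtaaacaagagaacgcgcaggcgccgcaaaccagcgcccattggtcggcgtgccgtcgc
LAMP1, a major lysosomal membrane protein, rose by 0.21, GAA, acid alpha-glucosidase, by 0.29 and CTSF, a cathepsin, by 0.73.

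Mitochondrially encoded transcripts took a larger share of counts. It was 3.266% ± 0.247 in control and 4.277% ± 0.169 with the biosimilar (SD, n = 8), and every biosimilar library was above every control library (exact two-sided permutation p = 1.55e-04, the smallest that 12870 regroupings allow). Of the 13 mRNAs 12 rose. ND4, a complex I subunit, went from 3384 to 4134 CPM (median 3832) to 5392 to 6001 (median 5646; log2 fold change 0.57, SE 0.0349, edgeR adjusted p = 6.74e-14). CYTB and ATP6 (uncertain) rose by 0.43 and 0.45, COX3 by 0.16, and ND3 was not called at -0.12 (SE 0.0516, edgeR adjusted p = 0.0715). These mRNAs are short, and without the length trend all 13 rose. Of 31 nuclear genes of fatty acid oxidation 16 rose and 4 fell, with a median of 0.15. PDK4, which blocks the use of pyruvate, went from 1.717 to 2.738 CPM (median 2.421) to 3.962 to 5.817 (median 5.008), and both subunits of the trifunctional protein, HADHA and HADHB, rose by 0.23 and 0.27. ECI1, CRAT and ACSL4 fell by 0.19, 0.23 and 0.70, and the call of ECI1 was lost with length and GC trends removed (edgeR adjusted p = 0.867).

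Iron and lipid genes divided. Among 22 iron-handling genes 7 rose (31.8%, against 23.1% of all tested genes) and 2 fell (9.09%, against 23.9%). SLC40A1, the iron exporter ferroportin, went from 39.69 to 46.64 CPM (median 44.69) to 67.34 to 75.99 (median 72.46; log2 fold change 0.71, SE 0.0385, edgeR adjusted p = 5.53e-15), and NCOA4, the receptor that carries ferritin to lysosomes, rose by 0.30. The importer SLC39A14 fell by 0.29. Of 29 genes of sphingolipid and barrier lipid synthesis 12 rose (41.4%) and 5 fell (17.2%). SPTSSB, a subunit of serine palmitoyltransferase, rose by 0.75 and ABCA12, the lipid transporter of the skin barrier, by 0.50, while DEGS1, ELOVL6 and SPHK1 fell by 0.31, 0.36 and 0.51. Of 31 ABC transporters 10 rose (32.3%) and 5 fell (16.1%), or 8 and 8 without the length trend. ABCC11 (uncertain), an apocrine gland transporter, rose from a median of 11.57 to 28.58 CPM, and ABCC4, an exporter of cyclic nucleotides, fell from 8.529 to 4.85.

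Genes of the late epidermis had the largest median of the 41 lists, 0.97. Of 58 cornified envelope and late epidermal genes 17 passed the filter on low counts, and of these 15 rose and 1 fell. A low gene that is high in one group passes the filter more easily, so that these counts do not speak for the 41 others. The same limit holds for other lists with untested members, among them mucins, serpins and chemokines below. Levels of the late epidermal genes were low except for IVL, TCHHL1, PPL and a few more. IVL (involucrin), a scaffold of the cornified envelope, went from 89.78 to 107.3 CPM (median 94.38) to 144.1 to 164.8 (median 157.1; log2 fold change 0.71, SE 0.0382, edgeR adjusted p = 5.29e-15). TCHHL1 went from 26.12 to 31.42 (median 28.95) to 60.61 to 82.81 (median 69.34), and PPL (periplakin) from a median of 69.89 to 102.3. SPINK5, a protease inhibitor of the epidermis, had the largest rise of all tested genes but only 0.5165 to 1.616 CPM in control (median 0.996) and 2.977 to 7.528 with the biosimilar (median 5.58). CASP14, a caspase of cornification, went the other way and fell by 0.44, and TGM1, the transglutaminase that cross-links the envelope, was not called at -0.11 (SE 0.0512, edgeR adjusted p = 0.0909).

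Of 22 tested keratins 12 rose and 2 fell, or 13 and 1 without the length trend. Besides KRT23 and KRT9, KRT27, a hair follicle keratin, rose from 1.224 to 2.252 CPM (median 1.783) to 4.332 to 7.784 (median 5.814), whereas KRT24 and KRT81 (uncertain) fell by 0.69 and 0.09. The fall of KRT81 was lost in 11 of the alternative settings. The luminal keratin gene KRT18 (uncertain) rose by 0.23. Of 11 tested mucins 7 rose and 1 fell, or 7 and 2 without the length trend, MUC20 (uncertain) going from a median of 18.94 to 35.4 CPM, MUC19 from 1.81 to 4.138 and MUC5B from 3.466 to 2.092. All 6 changes among 8 tested serpins were rises, of 35 listed. Milk and apocrine secretory genes rose in 6 of 14 cases (42.9%, against 23.1% of all tested genes) and fell in 3 (21.4%, against 23.9%). APOD, a lipid carrier of apocrine fluids, and LCN2, lipocalin 2, rose by 0.81 and 0.89 with PIP, and PLIN2, a lipid droplet coat, FASN, fatty acid synthase, and SERHL2 (uncertain) fell by 0.47, 0.11 and 0.26. The fall of SERHL2 was lost in 7 of the alternative settings.

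Target genes of the Hippo pathway rose almost throughout, while lists of adhesion and surface genes moved both ways. Of 18 target genes of YAP and TAZ, the effectors of that pathway, 16 rose and 0 fell, with a median of 0.36, and 14 rose and 1 fell without the length trend. NT5E, the surface enzyme CD73, went from 16.06 to 20.61 CPM (median 16.65) to 31.87 to 40.8 (median 36.34; log2 fold change 1.07, SE 0.0596, edgeR adjusted p = 1.02e-14). MYOF, a membrane repair protein, rose by 0.86 and CCN1, a matricellular protein, by 0.45. Of 19 tested cadherins and catenins 7 rose (36.8%) and 3 fell (15.8%). Their median of 0.09 turned to -0.02 without the length trend and was 0.02 with length and GC trends removed. JUP, plakoglobin, was the clearest, from 1043 to 1220 CPM (median 1071) to 1443 to 1621 (median 1557), and CTNND1, p120 catenin, rose by 0.32 while CDH24, PKP1 and PKP3 fell by 0.41, 0.24 and 0.13, the last not with length and GC trends removed (edgeR adjusted p = 0.441). Tetraspanins rose in 9 of 20 cases (45%) and fell in 3 (15%), led by TSPAN1 (0.61) and CD63. Semaphorins, plexins and neuropilins moved both ways, 8 up and 7 down of 23 (34.8% and 30.4%, against 23.1% and 23.9% of all tested genes). PLXNB2, a semaphorin receptor, rose by 0.39 and SEMA3C and NRP1 fell by 0.34 and 0.42. Of 13 tested metalloproteinases, ADAMs and inhibitors 6 rose (46.2%) and 3 fell (23.1%, against 23.9% of all tested genes). TIMP2 (uncertain) and ADAM10, a sheddase of HER2 family ligands, were higher by 0.52 and 0.26. MMP15, MMP16 and MMP9 were lower by 0.37, 0.57 and 0.67.

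Signalling and transcription factor genes followed. Of 22 tested genes of the immediate-early list 13 rose and 2 fell. Most list members encode transcription factors, but BTG1 and IER3 do not. BTG1 (uncertain) and KLF4 were with EGR1 among the rises at 0.56 and 0.41, and the falls were IER3 and IER5L at -0.39 and -0.45. Notch genes moved both ways, 10 up (35.7%, against 23.1% of all tested genes) and 6 down (21.4%, against 23.9%) of 28. DLL4, a Notch ligand, went from 1.535 to 2.425 CPM (median 1.966) to 3.771 to 8.759 (median 6.374; log2 fold change 1.67, SE 0.161, edgeR adjusted p = 1.32e-09), while HES6 and HES4, transcriptional repressors of the HES family, fell by 0.69 and 0.48. In the Wnt pathway 5 of 33 rose (15.2%, against 23.1% of all tested genes) and 8 fell (24.2%, against 23.9%). Without the length trend 5 rose and 11 fell, and the median went from -0.03 to -0.10. WNT5A was higher by 0.25, and NKD1, KREMEN2 (uncertain) and DVL1 were lower by 0.80, 1.23 and 0.29. Of 29 nuclear receptors 10 rose (34.5%) and 5 fell (17.2%), or 8 and 5 without the length trend, with a median of 0.11 that went to 0.06. RARG, a retinoic acid receptor, rose by 0.27. Histone methyltransferases and demethylases rose in 19 of 57 cases (33.3%) and fell in 13 (22.8%), with a median of 0.03. Without the length trend 14 rose and 18 fell, with a median of -0.0050. KDM5B rose by 0.35 and EZH2, the Polycomb methyltransferase, fell by 0.21 under either count. F-box proteins and cullins stood nearer to the background, 19 up (29.2%) and 16 down (24.6%) of 65.

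Genes by which immune cells and complement recognise a cell were mixed. Of 26 tested ligands of immune effector cells and complement inhibitors 8 rose (30.8%, against 23.1% of all tested genes) and 5 fell (19.2%, against 23.9%). Without the length trend 9 rose and 5 fell, and with length and GC trends removed 13 rose and 5 fell. The complement inhibitors CD55 and CD59 (uncertain) rose, CD55 from 56.09 to 65.51 CPM (median 59.68) to 89.78 to 106.4 (median 97.85; log2 fold change 0.71, SE 0.0391, edgeR adjusted p = 8.25e-15) and CD59 by 0.42. CD24, a ligand of an inhibitory receptor of macrophages, rose by 0.22, and CD58, a ligand of T and NK cells, fell by 0.32. Of 89 chemokines, interleukins and receptors 25 were tested, of which 10 rose and 1, IL12A, fell, or 11 and 2 without the length trend. IL18 went from 11.76 to 13.71 CPM (median 12.82) to 19.59 to 23.83 (median 20.4), CCL22 from a median of 2.334 to 5.416 and IL1R1, the interleukin 1 receptor, by 0.44 on the log2 scale. CSF1R, the receptor of a macrophage growth factor and the 1 leukocyte marker tested, rose by 0.35, with PTPRC at no more than 2 counts in every library. Of 17 sialyl- and fucosyltransferases, which finish surface glycans, 3 rose and 4 fell (17.6% and 23.5%, against 23.1% and 23.9% of all tested genes). Their median of 0.05 turned to -0.0076 without the length trend and was 0.0017 with length and GC trends removed. ST3GAL1 rose by 0.24 and ST6GALNAC4 fell by 0.45.

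**Figure D4:**
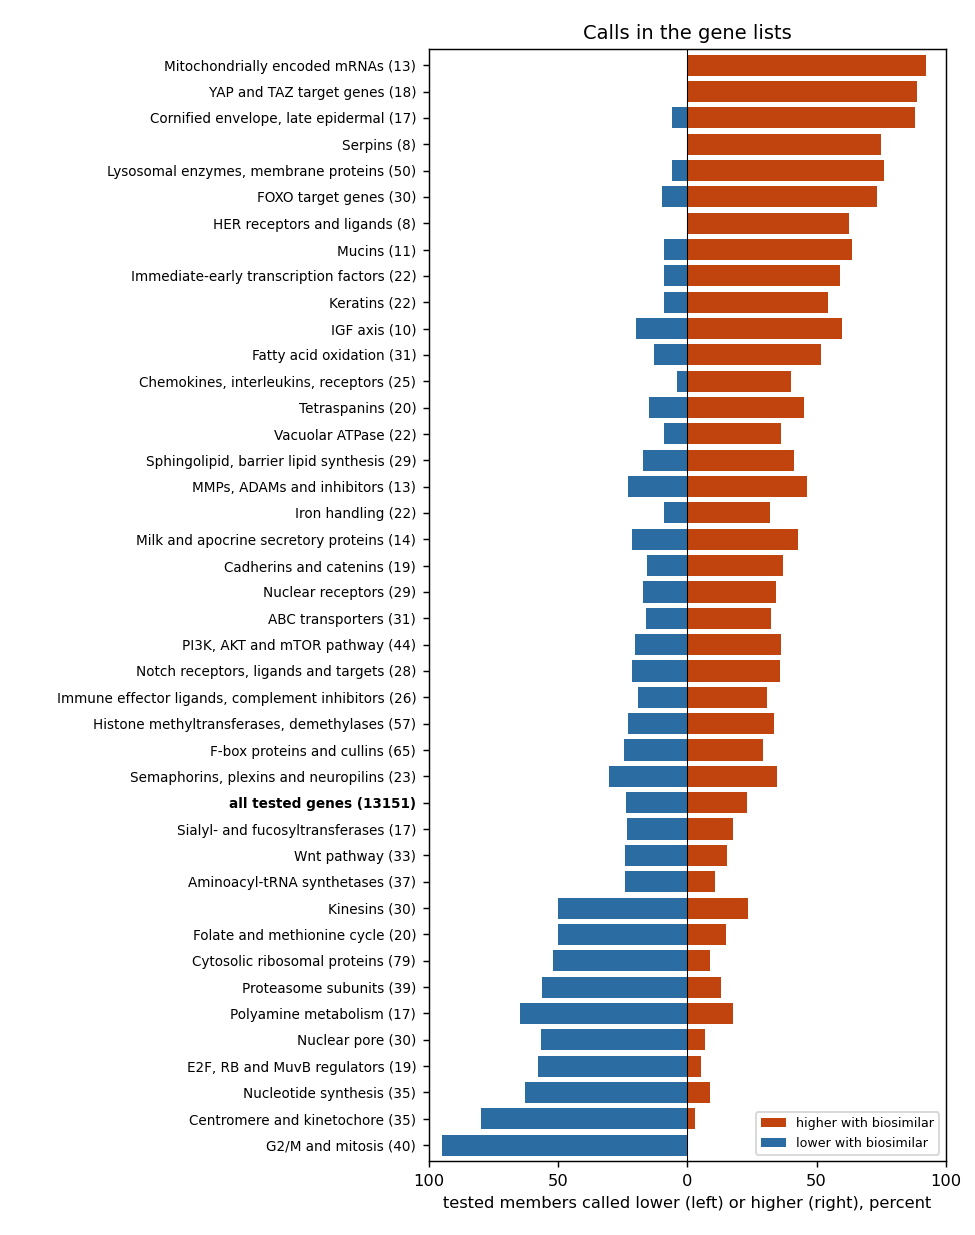
Share of the tested members of each gene list called lower (left, blue) or higher (right, orange) with the biosimilar at an edgeR adjusted p under 0.05; the number tested follows each name. Over all tested genes the shares were 23.9% and 23.1%; G2/M genes had 95% lower and 0% higher. After removal of the length trend more ribosomal protein genes were higher than lower, as against more lower here. Histone methyltransferases and demethylases turned the other way. The medians of cadherins and catenins and of sialyl- and fucosyltransferases also changed sign. With length and GC trends removed 30 ribosomal protein genes were higher and 29 lower. The medians of the cadherin and transferase lists were then 0.02 and 0.0017.

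Library by library the lists differed in how steadily they moved. The medians of the G2/M, lysosomal, FOXO and cornified envelope lists lay outside the control range in all 8 biosimilar libraries, and replicate 6, which lacks the length trend, stood at -0.29, 0.23, 0.27 and 1.04. Other lists were less even. The ribosomal protein, proteasome and histone methyltransferase lists placed replicate 6 at 0.04, -0.03 and -0.07, the first and the third on the other side of 0 from the remaining biosimilar libraries, which ran from -0.27 to -0.04 and from 0.02 to 0.14. The lists of PI3K, AKT and mTOR genes, of the insulin-like growth factor axis and of cadherins and catenins also had replicate 6 on the other side of 0, for the last at -0.0039 against 0.06 to 0.24.

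**Figure D5:**
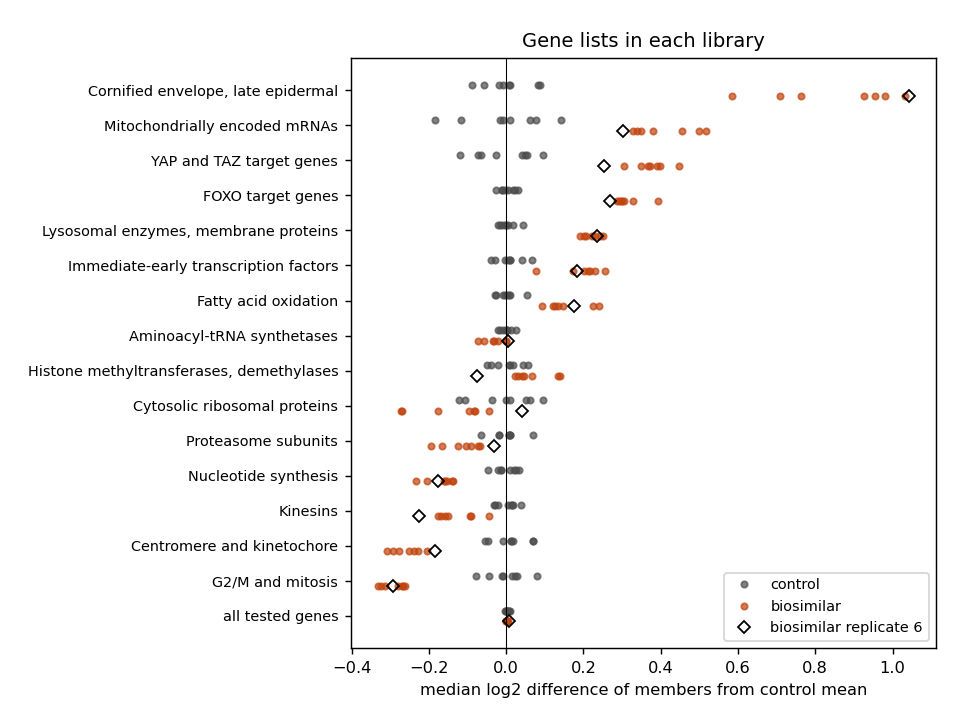
Median log2 difference of a list's tested members from the control mean (horizontal axis) in each control library (grey), each biosimilar library (orange) and biosimilar replicate 6 (open diamond). G2/M genes lie at -0.33 to -0.26 in the biosimilar libraries and lysosomal genes at 0.19 to 0.25. Ribosomal protein genes and histone methyltransferases and demethylases have replicate 6 on the other side of 0. The medians of both these lists turn sign when the length trend is removed. With length and GC trends removed the ribosomal protein median is again negative, at -0.0150.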

How the data were processed

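PolyA RNA was sequenced with the TruSeq Stranded mRNA kit, per the labels' protocols. The authors deposited a table of expected counts of 60617 genes, made with STAR, RSEM and FastQC on GRCh38.p12 per the submitters' processing notes. The strand setting, trimming and annotation were not given in the sources used here, so it is unknown whether reads of a gene and its antisense partner were separated. As deposited, 9.14% of the expected counts had a fractional part, and all were rounded to whole numbers. Groups and replicate numbers were taken from the sample titles.

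The 16 libraries were fitted alone with edgeR 4.0.16 (R 4.3.3, limma 3.58.1): filterByExpr, TMM factors, quasi-likelihood test of biosimilar against control without covariates, and Benjamini-Hochberg adjustment over all tested genes, with a threshold of 0.05. The SE is the log2 fold change divided by the square root of F. CPM values use TMM-scaled totals. Single values were compared by exact permutation. Symbols were deposited for 12160 tested genes, taken from a name table for 970 and absent for 21. Coordinates are from GENCODE on GRCh38. Promoters are RefSeq sequences. Counts were also simulated with 200 of 13151 genes changed and with independent noise that held no trend shared by genes of a library. There 61.2%, 88.1% and 93.9% of genes changed by 1.2-fold, 1.5-fold and 2-fold were recovered, and 3.57% of 168 calls were false. In the data 47.0% of the tested genes were called and a length trend was present, so these rates do not carry over to the calls above.

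Named were (a) the 12 largest rises and falls with adjusted p under 0.05, at least 5 CPM, mostly whole counts and groups that do not overlap, (b) the 6 of each with the smallest p, (c) the 6 with the largest gain and loss in CPM, (d) up to 3 members of each list in each direction by p and (e) ERBB2, EGFR and ERBB3. Other genes, named for a promoter, a role or a place at the end of a list, were chosen after their values were seen. The members and lists were chosen with earlier results of these data known. Same-numbered libraries correlated between -0.0899 and 0.195, over 0.1 in 2 of 8 pairs, which were replicates 2 and 4. These replicates also stood highest on the second principal component, at 11.2 and 7.24 in control and 5.73 and 6.8 with the biosimilar. The labels do not say that the numbers pair samples. Such values cannot show whether same-numbered libraries shared a plate or batch. Alternatives were other scalings and filters, DESeq2 1.42.0, limma-voom, a replicate block, each library left out and, added after seeing the data, removal of trends on gene length and GC content (lowess span 0.3).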

Additional observations from a re-analysis of the deposited data

Results flagged for a closer look

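Among 516 groups of 8 libraries examined (252 named genes and 6 other values, each in both groups), 26 had 1 library set apart from the other 7, by a gap of more than 0.526 of the group's range. In independent groups chance does this in about 1 in 20, which is about as many as were found. The examined genes share the same 16 libraries, so this rate cannot show whether chance accounts for the flagged groups.

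Biosimilar replicate 6 accounted for 10 of them. It was the highest biosimilar library for KRT9 (gap 0.655 of the range, 14.91 CPM against 10.04 to 11.72), RPS6KB2 (0.548) and HES6 (0.563). It was the lowest for ERBB3 (0.546, 193.5 CPM against 211.9 to 227.1), RANBP2 (0.582), ABCA12 (0.585), MYOF (0.566), SEMA3C (0.527), FASN (0.548) and KIF16B (0.647, 82.39 CPM against 97.96 to 106.5). The length contrast of this library was -0.06, and its part in these values was not tested.

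Control replicate 5 accounted for 5. It was the highest control library for ODC1 (0.561), RPS2 (0.7, 1547 CPM against 1339 to 1401), DVL1 (0.659) and ESRRA (0.528) and the lowest for ADAM10 (0.668, 165.3 CPM against 182.1 to 190.4).

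The others were spread over libraries. Biosimilar replicate 2 was lowest for ADGRF1 (0.595, 26.48 CPM) and highest for ND5 (0.543). Biosimilar replicate 3 was highest for KRT24 (0.575) and KDM7A (0.565), biosimilar replicate 8 highest for INSYN1 (0.538) and biosimilar replicate 1 lowest for SERPINB1 (0.593). Control replicate 2 was lowest for ATP6V1B2 (0.53) and highest for IL12A (0.528). Control replicate 3 was highest for CTSC (0.609), control replicate 8 lowest for FASN (0.559) and control replicate 4 highest for IRS2 (0.531, 1.756 CPM against 0.593 to 1.139).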

How the results depend on the processing

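Tested against a 1.2-fold change, 1083 genes changed (621 rose and 462 fell), and 13 of the called genes were at least 2-fold lower. With no filter on low counts 270 called genes were at least 2-fold higher and 171 lower, against 73 and 25. The count at least 2-fold lower was 14 with the length trend removed and 15 with length and GC trends removed; the cause was not tested. With both trends removed KRT81 turned to 0.0001 (edgeR adjusted p = 0.997) and PKP3 to 0.0252 (edgeR adjusted p = 0.441). Leaving out each library in turn gave 5882 to 6392 changed genes, 2872 to 3149 rises, 2965 to 3243 falls, 67 to 84 genes at least 2-fold higher and 23 to 29 lower, and differences of 0.955 to 1.06 percentage points in the mitochondrial share and -0.749 to -0.578 in the ribosomal protein share. The replicate block gave 6405 changed genes (3129 rises and 3276 falls), and changed the call of none of the 252 named genes. DESeq2 gave 5947 changed genes and limma-voom 6135. Of the named genes 238 kept their call and direction in the alternatives run on them, and 14 lost a call in at least 1, CENPC in 13 and KRT81 in 11 of them. Other scalings moved the median log2 fold change of all genes from -0.0018 to between -0.0113 and 0.0060. Depth limits the low genes: in the lowest quintile by level the median SE was 0.175.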
